A study of Mus musculus with 60 samples.

Results

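The transcripts of the PAR bZIP factors Dbp, Tef, and Hlf and of their antagonist Nfil3 were followed over the day in the kidney, in control and in cKOt animals. These 4 genes were chosen by name from 55335 genes in the count data, and all 4 were retained among the 15546 genes that reached 1 CPM (counts scaled to a library of 1000000) in at least 1 sample. Both genotypes carried Bmal1lox/lox on the C57BL/6J background, were male and littermates, and received doxycycline (2 mg/ml, with 20 mg/ml sucrose) in drinking water for 2 weeks from the age of 8 weeks. The cKOt mice also carried Pax8-rtTA and LC1, so that doxycycline switched on Cre in Pax8-expressing cells, which are those of the renal tubule, whereas the other cells of the kidney kept an intact Bmal1 gene. Kidneys were taken 4 weeks after doxycycline at ZT0, ZT4, ZT8, ZT12, ZT16, and ZT20, where Zeitgeber time (ZT) counts hours from lights on and the dark phase starts at ZT12. There were 5 mice in each of the 12 groups, which the authors chose from a larger number by RNA quality and by distance from the other replicates.

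DBP, TEF, and HLF are transcription factors of the proline and acidic amino acid-rich basic leucine zipper (PAR bZIP) family. They activate genes through D-box elements, and in liver and kidney they carry time-of-day information from the core clock to enzymes and transporters of metabolism and detoxification. NFIL3, also called E4BP4, is a basic leucine zipper repressor that binds the same elements. In the textbook circuit, the heterodimer of BMAL1 and CLOCK drives Dbp through E-boxes, whereas Nfil3 is under ROR elements, which the ROR activators and the REV-ERB repressors share.

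The starts of the 4 genes are shown first, and they were searched for the letters of motifs that include those of these arms. In RefSeq (GRCm38.p6), 5 windows of 300 bases match the 4 genes, 1 each for Dbp, Hlf, and Nfil3 and 2 for Tef. Each window runs from 250 bases before to 50 bases after a start. The letters searched on both strands were CACGTG (E-box), CACGTT (an E-box variant), TTATGTAA or TTACGTAA (D-box), TAGGTCA or TGGGTCA (ROR element), and TGACGTCA (cAMP response element), and none of the matches found overlapped another. Both Tef windows hold an E-box, the Nfil3 window holds a ROR element on the opposite strand, and the Hlf window holds a cAMP response element. The Dbp window holds none of these letters. Bases outside the windows were not searched, so this does not show that Dbp lacks an E-box. Of all 32851 windows in the table, 7.15% hold the E-box letters, 6.45% those of a ROR element, 1.79% those of the cAMP response element, 4.68% those of the E-box variant, and 1.06% those of a D-box. In the sequences that follow, capitals mark the matched letters, and each sequence reads in the direction of its gene. The 30-base stretches lie in first exons of the GENCODE annotation (for Tef also in the antisense gene Gm17597), and the second Tef start lies in an intron of the longer Tef transcripts. The other stretches hold no annotated exon.
Dbp, upstream, chr7:45704997-45705087, plus strand: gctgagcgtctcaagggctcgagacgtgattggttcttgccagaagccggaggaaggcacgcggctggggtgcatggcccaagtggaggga
Tef, first start, chr15:81802534-81802563, plus strand: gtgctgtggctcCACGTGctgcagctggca
Tef, second start, chr15:81811164-81811413, plus strand: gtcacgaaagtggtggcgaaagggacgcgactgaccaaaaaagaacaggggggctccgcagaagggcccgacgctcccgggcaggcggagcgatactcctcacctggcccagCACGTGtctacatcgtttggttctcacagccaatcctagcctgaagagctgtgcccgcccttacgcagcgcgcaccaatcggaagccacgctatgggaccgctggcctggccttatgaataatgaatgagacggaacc
Hlf, upstream, chr11:90390918-90391167, minus strand: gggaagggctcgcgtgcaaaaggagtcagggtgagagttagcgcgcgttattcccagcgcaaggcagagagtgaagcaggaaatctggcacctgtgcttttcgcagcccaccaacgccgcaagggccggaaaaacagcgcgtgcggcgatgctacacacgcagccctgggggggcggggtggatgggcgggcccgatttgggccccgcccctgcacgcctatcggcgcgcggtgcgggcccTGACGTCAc
Nfil3, near the start, chr13:52981033-52981062, minus strand: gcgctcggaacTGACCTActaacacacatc

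The E-box of Tef lies 127 bases before the first start and 138 bases before the second. The cAMP response element of Hlf begins 9 bases before the start, and the ROR element of Nfil3 begins 12 bases before it. A match of letters is a description of the sequence, and binding was not measured here. In GENCODE release M21 on GRCm38, Dbp (ENSMUSG00000059824) spans bases 45705088 to 45710203 of chromosome 7, Tef (ENSMUSG00000022389) spans 81802421 to 81826863 of chromosome 15, Hlf (ENSMUSG00000003949) spans 90336536 to 90390895 of chromosome 11, and Nfil3 (ENSMUSG00000056749) spans 52967209 to 52981073 of chromosome 13.

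Each library held 17791420 to 20906706 counts on genes. Raw counts ranged from 26 to 1495 for Dbp, from 3279 to 10665 for Tef, from 1452 to 3356 for Hlf, and from 24 to 625 for Nfil3, so the troughs of Dbp and Nfil3 rest on few reads. Arntl, the gene of BMAL1, ranged from 1.93 to 57.1 CPM over the control mice and from 14.6 to 26.8 CPM over the cKOt mice, with an amplitude of 4.80 ± 0.20 and 0.49 ± 0.20 (SE) on the log2 scale. In the daily mean, Arntl was higher in cKOt mice by 0.71 ± 0.09 (SE) on the log2 scale. The difference ran from -0.99 at ZT0 to 2.78 at ZT8. Counts per gene cannot show the deleted part of Arntl, and they do not check the labels by its loss. The labels name the renal tubule as tissue and the methods describe pieces of whole kidney. Summed over 4 genes, markers of proximal tubule reached 6900 to 12518 CPM in cKOt and 7864 to 11672 CPM in control mice, and 3 podocyte markers summed to 246 to 359.8 CPM over all mice, so cells outside the tubule were in the tissue. In such bulk samples, fewer cells of a type and less RNA per cell cannot be told apart. The study's sample table marks replicate 4 of the cKOt mice at ZT16 for removal, yet the sample was deposited, and it was kept here.

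Over the day, Dbp and Tef fell in cKOt mice, Nfil3 rose, and the daily mean of Hlf did not pass the test. The mean CPM of Dbp was 29.7 in control and 6.93 in cKOt mice. The fit instead averages the log2 fold changes of the 6 time points with equal weight. By that measure Dbp was 2.73-fold lower, with a log2 fold change of -1.45 ± 0.10 (SE, 30 mice per genotype). Tef was 1.49-fold lower, with a log2 fold change of -0.57 ± 0.04. Nfil3 was 2.72-fold higher, with a log2 fold change of 1.44 ± 0.13. Hlf differed by 0.01 ± 0.03. The p values of edgeR's quasi-likelihood F test, adjusted after Benjamini and Hochberg across all genes, were 3.8e-19 for Dbp, 1.7e-19 for Tef, 5.1e-14 for Nfil3, and 0.78 for Hlf. At this threshold of 0.05, 3 of the 4 members were called in a comparison that called 50.0% of all genes, 26.8% higher and 23.2% lower, so the count of members called has little weight beside the sizes.

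**Figure D1:**
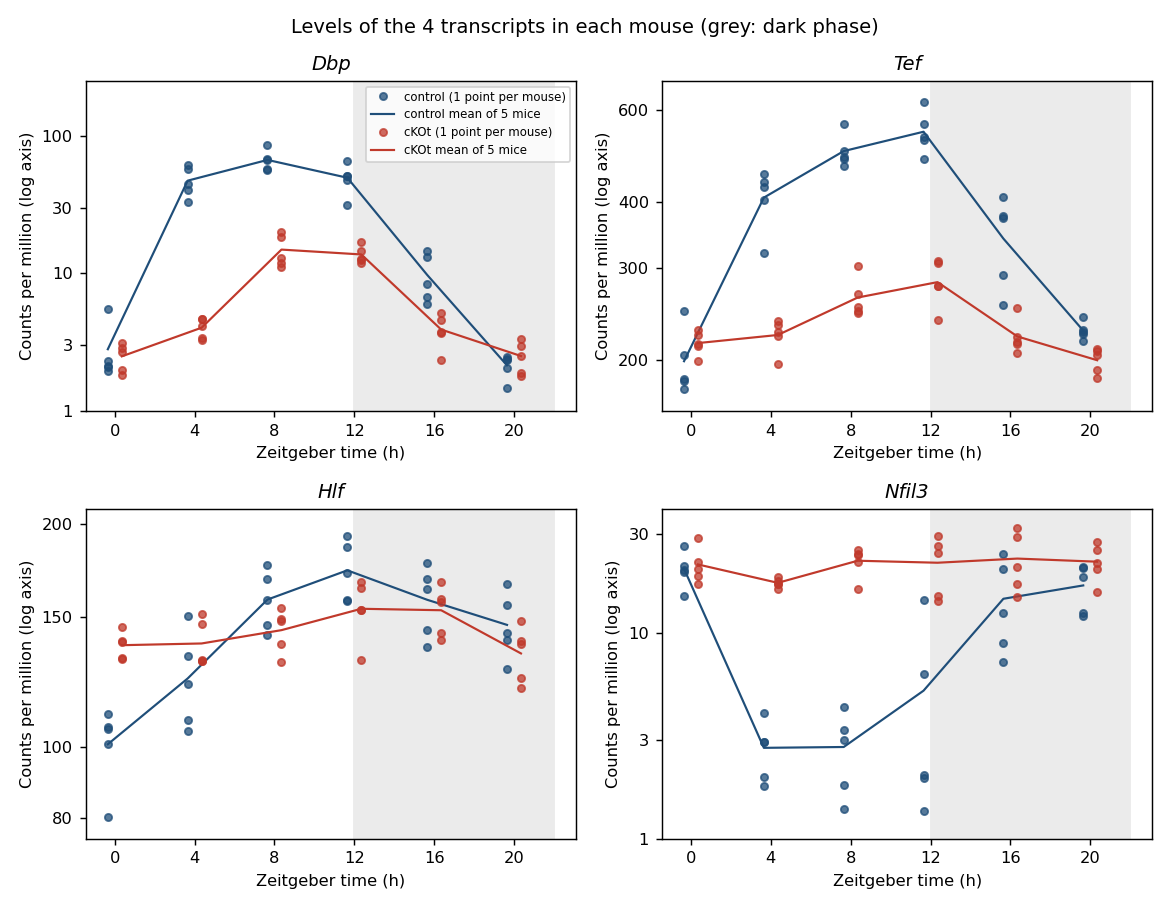
CPM (log axis) of Dbp, Tef, Hlf, and Nfil3 against Zeitgeber time in hours, with 1 point for each of 30 control (blue) and 30 cKOt mice (red) and lines through the means of 5 mice. Dbp spans 1.47 to 85.4 CPM in the control group and 1.80 to 20.0 CPM in the cKOt group. Nfil3 in cKOt mice stays between 14.2 and 32.4 CPM at all 6 time points.

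The daily means hide a strong dependence on the hour. Of 24 tests of a member at a time point, 12 were called, and 11 of these lay between ZT4 and ZT16. The exception was Hlf at ZT0. The share of all genes called was 12.1% at ZT0, 12.5% at ZT4, 19.9% at ZT8, 21.0% at ZT12, 19.8% at ZT16, and 13.8% at ZT20. A further F test asked if the genotype difference changed with the hour. All 4 members passed it, with adjusted p values of 2.1e-10 for Dbp, 2.1e-09 for Tef, 0.00048 for Hlf, and 2.2e-06 for Nfil3, where 3.08% of all genes did.

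**Figure D2:**
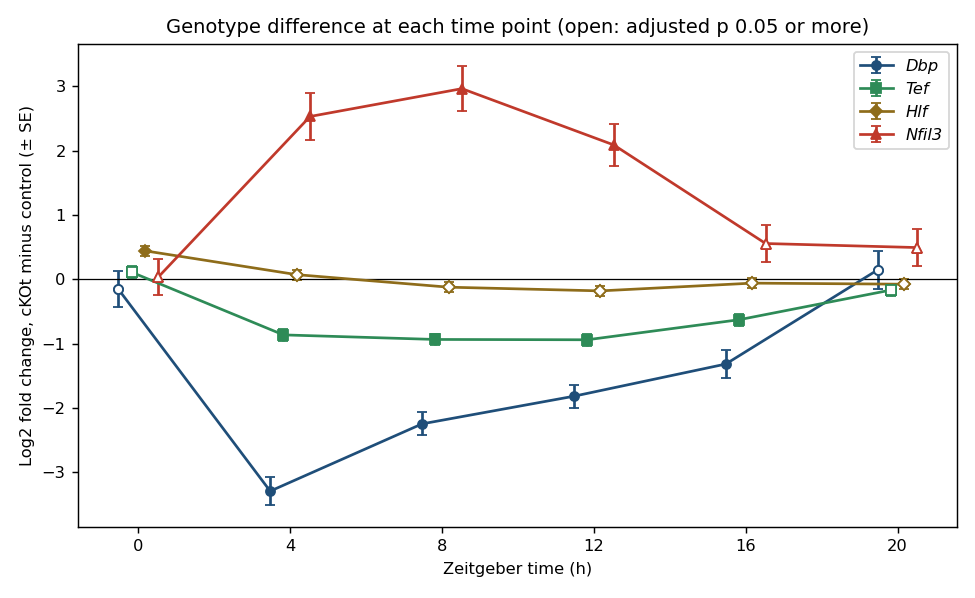
Log2 fold change of cKOt against control mice, ± SE of the fit, at each Zeitgeber time in hours, for Dbp (circles), Tef (squares), Hlf (diamonds), and Nfil3 (triangles), with 5 mice per group and open symbols where the adjusted p was 0.05 or more. Dbp lies lowest at ZT4 (-3.29) and Nfil3 highest at ZT8 (2.96), and both are near 0 at ZT0.

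Dbp, the best known of the PAR bZIP activators, was low at the end of the night in both genotypes, and the genotypes parted during the day. At ZT20, the control mice had 1.47, 2.07, 2.34, 2.40, and 2.46 CPM and the cKOt mice 1.80, 1.90, 2.51, 2.99, and 3.35 CPM. At ZT0, the control mice had 1.97, 2.10, 2.12, 2.32, and 5.56 CPM and the cKOt mice 1.82, 1.99, 2.67, 2.86, and 3.15 CPM. The groups overlapped at both hours, and the log2 fold changes of 0.14 ± 0.30 at ZT20 and -0.15 ± 0.28 at ZT0 did not pass the test (adjusted p = 0.81 and 0.79). One control mouse at ZT0 stood above the other 4.

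At ZT4, the 5 control mice had 32.8, 40.4, 44.4, 57.6, and 60.9 CPM of Dbp. The cKOt mice had 3.30, 3.41, 4.16, 4.64, and 4.67 CPM at that hour, each of them above all cKOt mice at ZT0. The lowest control mouse was thus far above the highest cKOt mouse, and the log2 fold change was -3.29 ± 0.21 (adjusted p = 4.4e-18), a 9.81-fold difference. Ranges without overlap, with cKOt mice lower, were found for 5.47% of all genes at ZT4. At ZT8, the control mice reached 56.7, 57.1, 66.8, 68.0, and 85.4 CPM. The cKOt mice reached 11.1, 12.0, 12.9, 18.5, and 20.0 CPM. Again no mouse of one genotype came near the other, and the log2 fold change was -2.25 ± 0.18 (adjusted p = 3.5e-15).

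At ZT12, Dbp was still high in control mice, with 31.5, 47.8, 51.3, 51.4, and 65.9 CPM. The cKOt mice had 11.9, 12.5, 12.7, 14.6, and 17.0 CPM, and the log2 fold change was -1.82 ± 0.18 (adjusted p = 3.8e-12). The fall of Dbp in the night was under way in both genotypes by ZT16, when the groups still did not overlap. The control mice had 5.97, 6.78, 8.32, 13.1, and 14.6 CPM, and the cKOt mice had 2.36, 3.66, 3.79, 4.59, and 5.17 CPM. The log2 fold change was -1.32 ± 0.22 (adjusted p = 6.5e-06). The highest of these cKOt values, 5.17 CPM, belongs to the sample marked for removal. Ranges without overlap, with cKOt mice lower, were found for 4.46% of all genes at ZT8, 4.67% at ZT12, and 4.64% at ZT16.

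Tef, the second PAR bZIP activator, was lower in cKOt mice at the same 4 hours as Dbp, by smaller folds. At ZT4, the control mice had 319.8, 404, 428, 436, and 452 CPM and the cKOt mice 197, 223, 226, 233, and 237 CPM. At ZT8, the ranges were 469 to 564 CPM and 245 to 302 CPM. The groups did not overlap, and the log2 fold changes were -0.87 ± 0.10 at ZT4 (adjusted p = 5.3e-10) and -0.94 ± 0.09 at ZT8 (adjusted p = 4.2e-12).

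At ZT12, the control mice had 484, 525, 532, 563, and 619 CPM of Tef. The cKOt mice had 239, 277, 277, 307, and 308 CPM, and the log2 fold change of -0.94 ± 0.09 (adjusted p = 2.8e-12) was a 1.92-fold difference. At ZT16, the lowest control mouse lay just above the highest cKOt mouse. The control mice had 255, 291, 373, 376, and 409 CPM and the cKOt mice 207, 215, 216, 221, and 251 CPM, with a log2 fold change of -0.63 ± 0.09 (adjusted p = 2.7e-07).

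At the turn from night to day the difference in Tef was small. At ZT20, the control mice had 217, 224, 227, 228, and 242 CPM and the cKOt mice 185, 192, 205, 208, and 210.5 CPM. The ranges did not overlap, as for 3.83% of all genes with cKOt mice lower, yet the log2 fold change of -0.17 ± 0.09 did not pass the test (adjusted p = 0.24). At ZT0, the control mice had 177, 183, 184, 204, and 248 CPM and the cKOt mice 199, 213, 215, 223, and 228 CPM. These ranges overlapped, and the log2 fold change was 0.11 ± 0.09 (adjusted p = 0.48). The highest control mouse at ZT0 was the same animal for Dbp and Tef, and it also had the lowest Arntl of its group (31.3 CPM, against 47.6 to 57.1 CPM in the other 4).

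Hlf, the third PAR bZIP activator, was higher in cKOt mice at a single hour and was called at no other. At ZT0, the control mice had 80.2, 101, 105, 106, and 111 CPM. The cKOt mice had 131, 132, 139, 139, and 145 CPM at the same hour. Every cKOt mouse was above every control mouse, as for 4.06% of all genes with cKOt mice higher, and the log2 fold change was 0.44 ± 0.08 (adjusted p = 2.4e-05), or 1.36-fold.

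At the other hours, the Hlf ranges of the genotypes overlapped. At ZT12, near its peak, the control mice had 158, 158, 172, 186, and 193 CPM and the cKOt mice 131, 153, 153, 164, and 167 CPM. The log2 fold change there was -0.18 ± 0.08 (adjusted p = 0.083), which did not pass. It passed without the mice numbered replicate 5 (-0.22, adjusted p = 0.049). The remaining log2 fold changes were 0.07 at ZT4, -0.12 at ZT8, -0.06 at ZT16, and -0.08 at ZT20, each with an SE of 0.08. The lowest and highest group means of Hlf were 101 and 173 CPM for the control genotype and 134 and 154 CPM for the cKOt genotype.

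Nfil3, the repressor of the same elements, lost the daytime trough that it had in control mice. At ZT4, the control mice had 1.81, 1.99, 2.95, 2.97, and 4.09 CPM and the cKOt mice 16.3, 17.2, 17.2, 17.9, and 18.7 CPM. At ZT8, the control mice had 1.39, 1.83, 3.03, 3.36, and 4.35 CPM and the cKOt mice 16.4, 22.1, 24.0, 24.1, and 25.3 CPM. The groups were far apart, with log2 fold changes of 2.53 ± 0.37 at ZT4 (adjusted p = 6.5e-07) and 2.96 ± 0.35 at ZT8 (adjusted p = 1.9e-09). Ranges without overlap, with cKOt mice higher, were found for 5.62% of all genes at ZT4 and 5.02% at ZT8.

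At ZT12, the control mice had 1.36, 1.97, 2.03, 6.32, and 14.5 CPM of Nfil3, a spread of 10.7-fold. The cKOt mice had 14.2, 15.1, 24.4, 26.3, and 29.4 CPM. The highest control mouse lay just inside the cKOt range, and the log2 fold change was 2.09 ± 0.33 (adjusted p = 1.1e-06). It was 3.00 without the mice numbered replicate 3, to which that control mouse belonged, and 1.72 to 2.09 when any other number was left out. The same control mouse also had the lowest Dbp (31.5 CPM), the lowest Tef (484 CPM), and the highest Arntl (5.51 CPM) of its group.

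In the night, the Nfil3 values of control mice came to overlap those of cKOt mice. At ZT16, the control mice had 7.19, 8.95, 12.4, 20.4, and 24.2 CPM and the cKOt mice 14.9, 17.3, 20.8, 29.2, and 32.4 CPM. The log2 fold change of 0.56 ± 0.29 did not pass the test (adjusted p = 0.19), but it was 0.95 without the mice numbered replicate 5 (adjusted p = 0.034) and 0.93 with the batch in place of the factors of unwanted variation (adjusted p = 0.044). At ZT20, the control mice had 12.1, 12.5, 18.7, 20.7, and 20.8 CPM and the cKOt mice 15.7, 20.3, 21.8, 25.2, and 27.6 CPM. These groups overlapped, and the log2 fold change was 0.49 ± 0.29 (adjusted p = 0.29). At ZT0, the control mice had 15.1, 19.6, 20.1, 21.0, and 26.4 CPM, and the cKOt mice had 17.2, 18.8, 20.4, 22.0, and 28.9 CPM. Here the log2 fold change was 0.03 ± 0.28 (adjusted p = 0.96).

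A cosine with a period of 24 h was then fitted to each genotype, with the amplitude given as the log2 distance between peak and trough. In control mice, Dbp had an amplitude of 5.50 ± 0.26 (SE), which was the largest of all 15546 genes. The amplitude of Nfil3 was 3.27 ± 0.32 and ranked sixth. Tef had an amplitude of 1.51 ± 0.09 (rank 84), and Hlf of 0.68 ± 0.07 (rank 1023). All 4 members passed the test of a rhythm in control mice, as did 33.1% of all genes, with adjusted p values from 1.6e-23 for Dbp to 2.7e-10 for Nfil3.

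In cKOt mice, Dbp kept the second largest amplitude of all genes, 2.89 ± 0.26, although the peak-to-trough ratio of its fit dropped from 45.3-fold to 7.41-fold. Between its highest and lowest group means, the ratio was 31.1-fold in control and 5.96-fold in cKOt mice. The amplitudes of the other members were 0.45 ± 0.09 for Tef, 0.21 ± 0.07 for Hlf, and 0.27 ± 0.32 for Nfil3. The rhythm passed the test for Dbp (adjusted p = 4.5e-12) and Tef (adjusted p = 0.00019), but not for Hlf (adjusted p = 0.053) or Nfil3 (adjusted p = 0.74), against 28.2% of all genes called. With DESeq2, Hlf passed as well (adjusted p = 0.043). Relative to control mice, the amplitude that remained was 52.5% for Dbp, 29.8% for Tef, 30.2% for Hlf, and 8.13% for Nfil3. The value for Nfil3 is loose, since its amplitude in cKOt mice was 0.14 without the mice numbered replicate 2 and 0.42 without those numbered replicate 5. The difference of rhythm between genotypes passed for all 4 members, as for 4.35% of all genes, with adjusted p values of 1.5e-05 for Dbp, 2.9e-08 for Tef, 0.0033 for Hlf, and 2.9e-06 for Nfil3. For Hlf it was 0.073 without the mice numbered replicate 2.

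The order of the peaks was Dbp, Tef, Hlf, and Nfil3 in control mice. Dbp peaked at ZT8.80 ± 0.18 h (SE) and Tef at ZT9.81 ± 0.22 h, 1.00 ± 0.29 h later. Hlf peaked at ZT12.6 ± 0.39 h. Nfil3 peaked at ZT20.2 ± 0.38 h, 11.4 ± 0.42 h after Dbp and so nearly opposite to it. In cKOt mice, the peak of Dbp came 0.98 h later than in control mice (95% interval 0.20 to 1.77 h). For Tef and Hlf, the peak differed by 0.10 h (-1.47 to 1.67 h) and 0.43 h (-2.28 to 3.14 h), and these intervals leave room for shifts of more than 1 h in either direction. The peak of Nfil3 in cKOt mice had an SE of 4.62 h and gives no usable time.

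Each gene was also set against 5 models of rhythm by their weights from the Bayesian information criterion (BIC), with 0.65 as the lowest weight for an assignment. Dbp and Tef were assigned to model 5, an altered rhythm, at a weight of 1.00 each, and 2.37% of all genes were in that model. Nfil3 was assigned to model 2, a lost rhythm, at a weight of 0.98, and 6.25% of all genes were in it. Hlf stayed unassigned like 28.7% of all genes, with weights of 0.60 for model 5 and 0.40 for model 2. It moved to model 2 at a weight of 0.72 when no unwanted variation was removed, and to model 5 when the minimum weight was 0.5.

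Since DBP and NFIL3 act on the same elements, the ratio of their transcripts was computed within each mouse as a difference of log2 values after adding 0.5 CPM. In control mice, the mean log2 ratio of Dbp to Nfil3 ran from -2.73 ± 0.60 (SD, n = 5) at ZT0 to 4.42 ± 0.61 at ZT8, a span of 7.15 between group means. In cKOt mice, it ran from -2.91 ± 0.57 at ZT20 to -0.59 ± 0.44 at ZT8, a span of 2.32. Dbp exceeded Nfil3 in 16 of 30 control mice and in 1 of 30 cKOt mice, a comparison of CPM values that are not per length.

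**Figure D3:**
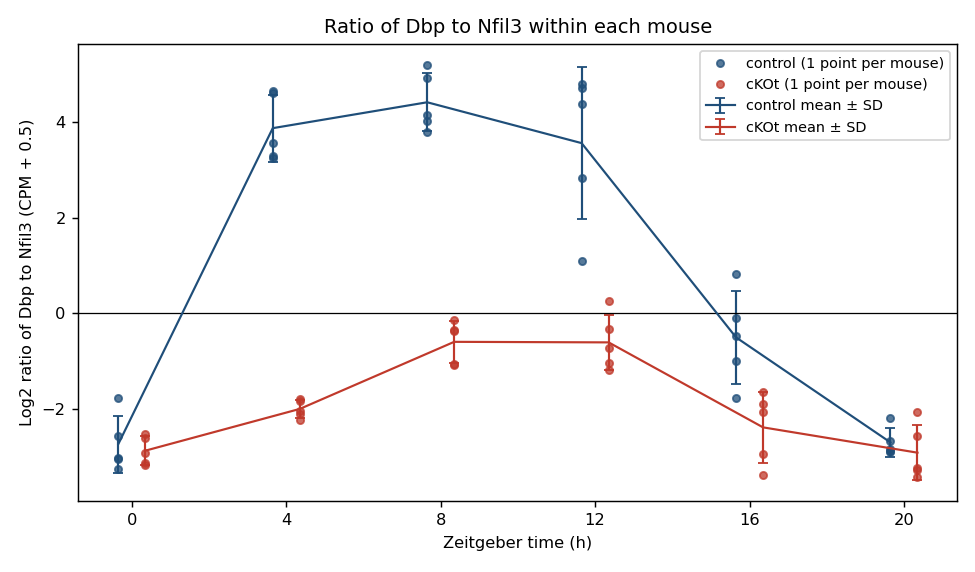
Log2 ratio of Dbp to Nfil3 (CPM + 0.5) in each mouse against Zeitgeber time in hours, with the mean ± SD of 5 control (blue) and 5 cKOt mice (red). The genotypes are apart at ZT4, ZT8, and ZT12 and fall together at ZT0 and ZT20, where both means lie between -2.91 and -2.70.

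At ZT4, the log2 ratio was 3.26 to 4.65 in control and -2.22 to -1.78 in cKOt mice. The difference of -5.88 was as extreme as a two-sided exact permutation test of 5 against 5 mice allows (p = 0.0079, adjusted over 6 time points p = 0.016). The same smallest p was reached at ZT8, with a difference of -5.01, and at ZT12, with a difference of -4.17, which was -5.00 without the mice numbered replicate 3. At ZT16, the ranges overlapped and the difference was -1.88 (exact permutation p = 0.016, adjusted p = 0.024). At ZT0 and ZT20, differences of -0.14 and -0.21 did not pass the exact permutation test (adjusted p = 0.71 and 0.55).

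Levels can be compared between genes only per length, for which CPM was divided by the kilobases covered by exons. On this scale Tef was the most abundant PAR bZIP transcript in every group. In control mice at ZT8, Tef had 63.6 ± 4.73 CPM per kb (SD, n = 5), Hlf 23.7 ± 2.18, and Dbp 22.3 ± 3.90. In cKOt mice at ZT8, Tef had 33.5 ± 2.97, Hlf 21.5 ± 1.44, and Dbp 4.98 ± 1.36. In cKOt mice Dbp was thus well under Hlf at this hour. In control mice the order of Dbp and Hlf turned with the length used, since per kb of the longest transcript Dbp had 36.4 ± 6.35 and Hlf 28.0 ± 2.59, against 8.11 ± 2.22 and 25.5 ± 1.71 in cKOt mice.

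The summed level of Dbp, Tef, and Hlf ran in control mice from 41.3 ± 5.02 CPM per kb at ZT0 to 112 ± 10.9 at ZT12. In cKOt mice, the sum ran from 46.3 ± 2.53 at ZT20 to 63.4 ± 4.75 at ZT12. Nfil3 reached 10.1 ± 2.00 CPM per kb at ZT0 in control mice and 8.62 to 11.3 as a group mean in cKOt mice. The share of Dbp in the sum ran from 1.40% at ZT20 to 20.3% at ZT8 in control mice and from 1.71% to 8.23% in cKOt mice. The share of Tef ranged only from 56.2% to 62.0% and from 53.8% to 56.4% between group means. That of Hlf ran from 21.7% to 42.4% in control mice and from 36.0% to 43.7% in cKOt mice. These shares depend on the length used. With the longest transcript as length, the mean share of Tef was 67.3% in place of 59.8% in control mice and 64.6% in place of 55.6% in cKOt mice, and that of Hlf in cKOt mice was 31.1% in place of 40.4%.

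**Figure D4:**
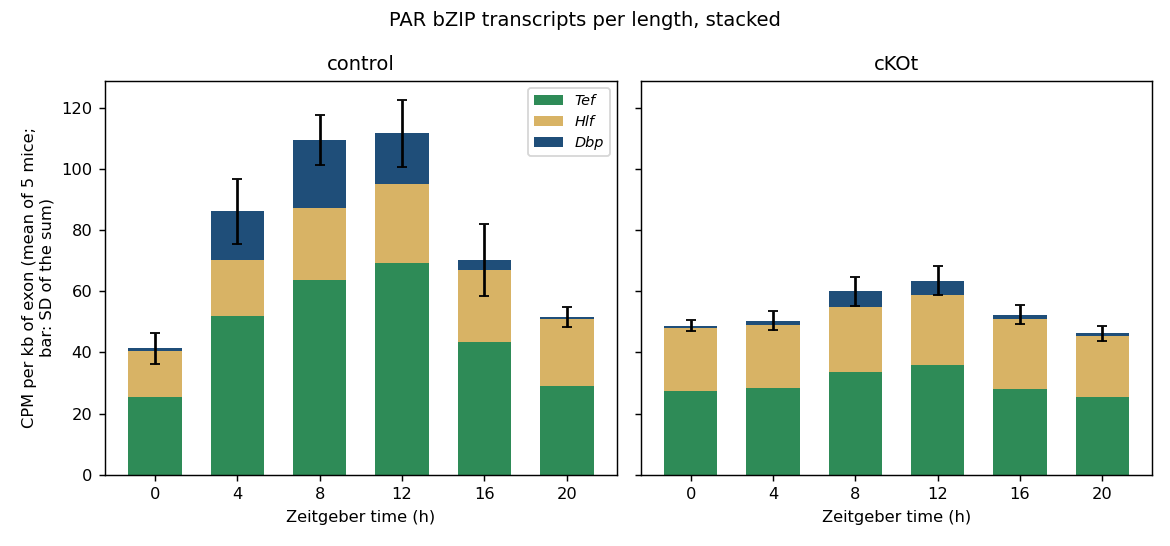
Stacked mean levels of Tef, Hlf, and Dbp in CPM per kb of exon against Zeitgeber time in hours, for control (left) and cKOt mice (right), with the SD of the sum over 5 mice as error bar. At ZT12 the sum is 112 on the left and 63.4 on the right, and the Dbp part nearly vanishes at ZT0 and ZT20 in both.

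Mice killed at the same hour also differed among themselves, and the deviations from the group means were compared between members in 12 correlations. Only Dbp and Tef in control mice passed after adjustment, with Pearson's r = 0.81 and Spearman's rho = 0.77 over 30 mice (permutation within groups, p = 2e-05 for both, adjusted p = 0.00024 for both). Without the 2 mice farthest from the median of Dbp, r was 0.74. In cKOt mice the same pair had r = 0.02 and rho = 0.07 (permutation p = 0.90 and 0.74, adjusted p = 0.90 and 0.74). The difference between the 2 correlations was not tested, and Dbp varied over a wider range in control mice.

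Of the other pairs, 2 had an unadjusted p under 0.05, both in cKOt mice. Dbp and Hlf had r = -0.48 and rho = -0.48 (permutation p = 0.014 and 0.016, adjusted p = 0.073 and 0.094). Tef and Hlf had r = 0.49 and rho = 0.39 (permutation p = 0.018 and 0.054, adjusted p = 0.073 and 0.18), and r fell to 0.33 without the 2 farthest mice. Nfil3 against Dbp gave r = -0.30 in control and -0.24 in cKOt mice, neither past the permutation test (adjusted p = 0.24 and 0.40).

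**Figure D5:**
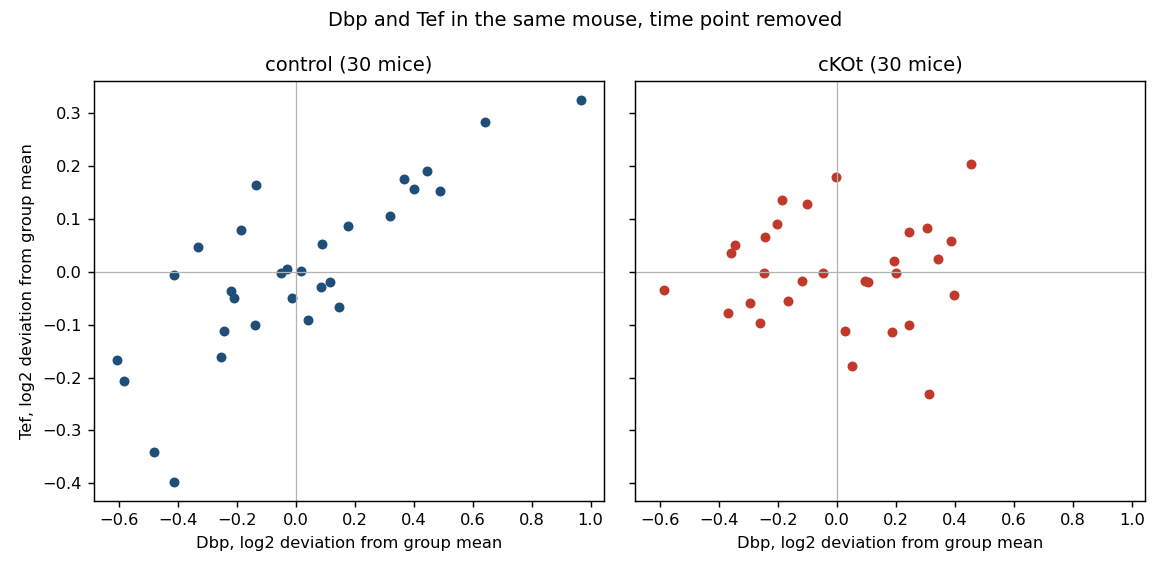
Log2 deviation of Tef against that of Dbp from the mean of the mouse's own group (CPM + 0.5), for 30 control mice (left) and 30 cKOt mice (right), 1 point per mouse. The control points follow a rising band (r = 0.81) and the cKOt points do not (r = 0.02).

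When the 12 group means of each member were put in order, no step between neighbours passed the adjustment over 44 steps. The smallest exact permutation p that 5 against 5 mice allow is 0.0079, which 4 steps reached, and the lowest adjusted p was 0.087. This smallest p left little room to pass the adjustment, and the neighbours were chosen by the same values. The test therefore cannot decide which steps differ, and a step that did not pass does not show equal levels. An unadjusted p under 0.05 was found for 6 steps. For Dbp these were the steps from cKOt ZT4 to control ZT16 (1.11 on the log2 scale), from cKOt ZT8 to control ZT4 (1.63), and from control ZT12 to control ZT8 (0.45). For Tef they were those from control ZT20 to cKOt ZT8 (0.21) and from control ZT4 to control ZT8 (0.30), and for Nfil3 that from control ZT12 to control ZT16 (1.73). No step of Hlf had an unadjusted p under 0.05.

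The likeness of other genes to each member was measured by Pearson's r over the 12 group means of log2 CPM among 13771 genes with a mean of at least 1 CPM. These values describe patterns over groups that share libraries and have no p. Dbp was most like Eef2k (0.98), Cplx2, Bhlhe41, Gimap5, and Sh2b3 (0.96 each), and most opposite to Ralgps2 (-0.97), Mtr (-0.96), and Tsr1 (-0.95). Eef2k, a kinase of translation elongation factor 2, ranged over only 0.70 on the log2 scale. Tef was most like Ciart (0.97), a repressor of the core clock, Sh2b3 (0.96), Slc5a6 (0.96), and Per3 (0.95), and most opposite to Rdh10 (-0.98), Gm3716 (-0.97), and Mtr (-0.97).

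Hlf had no close match. Its most alike genes were AC090479.2 and BC065397 (0.86 each), Tanc2 and Arhgef26 (0.81 each), and Tshr (0.80), and its most opposite were Olfml2b (-0.88), Cyb5d1 (-0.82), and P2rx1 (-0.81). Nfil3 was most like Rhobtb1 (0.99), Itga6 and A1cf (0.97 each), and Ypel2 and Zbtb21 (0.96 each), and most opposite to Slc5a6 (-0.94), Ccdc150 (-0.93), and Gypc (-0.93). Among the members, Dbp and Tef were alike at r = 0.94, and Nfil3 was opposite to Tef (-0.91) and Dbp (-0.86). Hlf was at 0.41 to Dbp, 0.52 to Tef, and -0.23 to Nfil3.

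Of 15 genes of the circadian clock, 6 were higher and 7 lower in the daily mean of cKOt mice. In that mean, 26.8% of all genes were higher and 23.2% lower. Arntl, the targeted gene, was among the higher ones (0.71 ± 0.09). The median log2 fold change of the 15 genes was -0.09 against 0.01 for all genes. The largest changes were those of Npas2 (3.45 ± 0.10), a partner of BMAL1 in place of CLOCK, Ciart (-2.63 ± 0.16), Nr1d2 (-1.99 ± 0.06), which encodes REV-ERB beta, and Cry1 (1.56 ± 0.04), a repressor of BMAL1 and CLOCK. The difference of rhythm passed for 10 of the 15, against 4.35% of all genes. These genes were listed with earlier results of these data known, so the counts are a description.

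Of 13 genes known to depend on PAR bZIP factors in liver or brain, 12 were retained. Cyp7a1 of bile acid synthesis was not. In cKOt mice, 9 were lower and 1 was higher in the daily mean, against 23.2% and 26.8% of all genes. The median log2 fold change was -0.61 against 0.01 for all genes. The list was chosen with earlier results of these data known, and it holds several genes of the Acot and Cyp4a families. Counts from it are therefore a description and not a test of the members. The largest change was that of Cyp2a5 (-4.17 ± 0.12), a coumarin hydroxylase, with 126 CPM in control against 6.66 CPM in cKOt mice. Those of Nr1i3 (-0.85 ± 0.20), the xenobiotic receptor CAR, Cyp4a10 (-0.81 ± 0.11), a fatty acid omega-hydroxylase, and Alas1 (-0.75 ± 0.05), the first enzyme of haem synthesis, came next. Nr1i3 was near the minimum level, with 0.65 CPM in control mice, and Cyp2a5 and Cyp4a10 have near-identical neighbours with which reads can be shared.

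By hour, Cyp2a5 was lower at all 6 time points, from -3.43 at ZT0 to -5.17 at ZT12. Alas1 was lowest at ZT8 (-1.31), and its log2 fold change at ZT20 was -0.15 (adjusted p = 0.51). Por was lower at all 6, from -0.32 at ZT0 to -0.88 at ZT12. Acot1, an acyl-CoA thioesterase, was lower at ZT20 (-1.56), ZT0 (-1.44), ZT16 (-0.88), and ZT4 (-0.62). Its values of -0.06 at ZT8 and 0.21 at ZT12 did not pass the test. Cyp4a10 was lower at the same hours, lowest at ZT0 (-1.35), and did not pass at ZT8 (-0.65) or ZT12 (0.22). Acot3 was lower only at ZT0 (-0.60) and ZT20 (-0.62), and Acot4 only at ZT0 (-0.44), ZT16 (-0.35), and ZT20 (-0.60). Nr1i3 and Cyp2b10 passed at no single hour. Acot2, a mitochondrial thioesterase, was higher at ZT8 (0.72) and ZT12 (0.73). It was also the only gene of the list that was higher in the daily mean (0.20 ± 0.06), and this call was lost with the batch in place of the factors of unwanted variation and without the mice numbered replicate 2. Cyp4a14, a fatty acid omega-hydroxylase, was higher at ZT12 (3.01, adjusted p = 0.00086). The control mice had 5.57, 8.04, 11.4, 17.1, and 18.2 CPM and the cKOt mice 27.9, 30.3, 32.1, 32.3, and 614 CPM at that hour. The size of this change rested on 1 cKOt mouse, and without the mice numbered replicate 3 it was 1.11 (adjusted p = 0.30). The difference of rhythm passed for 7 of the 12 genes, against 4.35% of all genes. Of the C/EBP family, which are basic leucine zipper factors outside the PAR group, 5 of 6 genes were retained. Ddit3 (-0.43 ± 0.10) and Cebpg (-0.16 ± 0.02) were lower in the daily mean, and the others did not pass. That comparison called 50.0% of all genes, 23.2% as lower, so this count has little weight.

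Some transcripts of other cells moved with genotype, in a comparison that called 50.0% of all genes, 26.8% higher and 23.2% lower. In the daily mean, all 4 endothelial markers were lower in cKOt mice, with a summed level of 219 to 311 CPM (median 277) against 268 to 329 CPM (median 295) in control mice. So were 3 of 4 fibroblast markers, with 54.4 to 145 CPM (median 105) against 39.7 to 170.3 CPM (median 123). The test also called 3 of 4 macrophage markers lower, with 61.9 to 99.3 CPM (median 74.1) against 53.0 to 94.3 CPM (median 78.2). For each of these cell types, the summed levels of the genotypes overlapped, widely for fibroblast and macrophage markers. Of 3 podocyte markers none passed the test. Of the tubular markers, 2 of 4 proximal, 1 of 2 thick limb, 1 of 2 distal convoluted, and 1 of 2 collecting duct genes were higher, and 2 proximal and 1 thick limb genes were lower. The retained lymphocyte markers, 1 of B cells and 2 of T cells, were lower and summed to at most 1.01 and 3.09 CPM. The part of these cells in the differences of the 4 members was not tested.

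Within the 6 batches of 9 to 12 samples named in the study's sample table, differences were averaged over those of ZT4, ZT8, and ZT12 at which the batch held both genotypes, which were all 3 hours in 1 batch, 2 in 4 batches, and 1 in the last. The difference of Dbp ran from -2.80 in the batch with 3 hours to -1.56 in that with 1 hour, on the log2 scale. That of Tef ran from -1.15 to -0.67, and that of Nfil3 from 1.00 to 3.30. These 3 members thus kept their direction in every batch. The rise of Hlf at ZT0 was 0.25 to 0.85 in the 5 batches that held both genotypes at that hour.

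Dbp and Tef overlap genes on the other strand. Dbp shares 539 exon bases with Sphk2, a sphingosine kinase, and whether the counting used strand is not given in the sources used here, so reads in those bases may not be separable. Sphk2 averaged 23.2 CPM over control and 24.5 CPM over cKOt mice, and its log2 fold change at ZT8 was 0.32 (adjusted p = 0.00053), at the hour when that of Dbp was -2.25. Tef shares 193 bases with the antisense gene Gm17597, which averaged 1.42 CPM over control and 0.81 CPM over cKOt mice. Its log2 fold change was -0.80 in the daily mean (adjusted p = 9e-08) and -1.19 at ZT8 (adjusted p = 0.0016), the same direction as that of Tef.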

How the data were processed

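RNA from mouse kidneys was sequenced by the authors as single reads from stranded poly(A) libraries. The 60 samples here were chosen from a larger number sequenced. Per the labels, the submitters' notes name cutadapt (version 1.8), STAR (version 2.5.3a), HTSeq (version 0.9.1), and GRCm38. The deposited values are raw counts of reads per Ensembl gene, without normalization. Lines that name no gene were left out. These were 7.17% to 10.6% of reads without a feature and 0.953% to 1.27% ambiguous reads, taken from counted, featureless, and ambiguous reads together. GENCODE M21 gave symbols to 55154 of 55335 gene IDs. Total counts of 17791420 to 20906706 per sample set the precision.

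Counts were tested with edgeR (version 4.0.16, R version 4.3.3) by quasi-likelihood F tests with TMM, 12 groups (genotype by hour), and 2 factors of RUVs, which was written anew, as was the model choice of dryR. Rhythms used cosine fits of 24 h. Amplitudes, peak times, and their SE come from linear models on corrected log2 CPM with a prior count of 2. CPM used TMM library sizes. The p values were adjusted over 15546 genes, with a threshold of 0.05. Single values used exact permutation tests, and correlations used 100000 permutations within groups, both two-sided (scipy). Samples were grouped by their labels, and p values measure the spread between mice. Replicate numbers do not pair mice, as the mean residual correlation was 0.0043 for the same number and -0.0010 for different numbers. Of 120 replicate pairs, none agreed within sampling noise. The procedure was tested on simulated data.

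The members and gene lists were chosen with earlier results of these data known. Named genes are the members, per member the 5 most alike and 3 most opposite genes, and per list up to 4 called genes with the largest change. One gene that this rule covers is not reported here. Acot1, Acot2, Acot3, Acot4, Por, Cyp2b10, Cyp4a14, Sphk2, and Gm17597 were named after their values were seen. Alternatives were DESeq2 (version 1.42.0) and its size factors, limma-trend (version 3.58.1), no filter, filterByExpr, no RUVs factors, batch in their place, the replicate block, other BIC weights, another pseudocount or length, and fits without the marked sample or 1 replicate number.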

Additional observations from a re-analysis of the deposited data

Results flagged for a closer look

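The genotype difference varied between time points for all 4 members by the F test of the 5 contrasts, with adjusted p values of 2.13e-10 for Dbp, 2.08e-09 for Tef, 0.000479 for Hlf, and 2.2e-06 for Nfil3. For Dbp, the log2 fold change ran from -3.29 at ZT4 to 0.14 at ZT20. For Tef, it ran from -0.94 at ZT12 to 0.11 at ZT0. For Hlf, it ran from -0.18 at ZT12 to 0.44 at ZT0, so that the sign turned over the day, although only the value at ZT0 passed its own test. For Nfil3, it ran from 0.03 at ZT0 to 2.96 at ZT8.

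One mouse lay far from the others of its group. A control mouse at ZT0 had 5.56 CPM of Dbp, against 1.97 to 2.32 CPM in the other 4, and its gap made up 0.902 of the group's range. It was the only such value in 48 groups of 5 mice, where chance gives about 1 in 20. The same mouse had the highest Tef (248 CPM) and the lowest Arntl (31.3 CPM) of its group.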

How the results depend on the processing

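The 44 tests of the members (daily mean, 6 time points, variation over the day, rhythm in each genotype, and its difference) were repeated under 14 alternatives. Of them, 35 kept their direction and their side of the threshold under all. The replicate block changed no call (for Dbp in the daily mean, -1.45), nor did leaving out the marked sample. With DESeq2 size factors, the daily mean of Hlf became -0.00032. With DESeq2, the rhythm of Hlf in cKOt mice passed (amplitude 0.20). With the batch in place of RUVs factors, Nfil3 at ZT16 passed (0.93). Hlf was assigned to model 2 without RUVs (weight 0.72) and to model 5 at a minimum weight of 0.5 (weight 0.60).

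Leaving out each replicate number moved Dbp at ZT0 from -0.36 to 0.14 and at ZT20 from -0.041 to 0.35, Nfil3 at ZT0 from -0.065 to 0.14, at ZT12 from 1.72 to 3.00, and at ZT16 from 0.30 to 0.95. For Hlf, the range was -0.022 to 0.029 in the daily mean, -0.22 to -0.14 at ZT12, -0.13 to 0.0016 at ZT16, and -0.57 to -0.42 for the difference of rhythm. The log2 ratio of Dbp to Nfil3 ranged from -0.31 to 0.17 at ZT0, -6.08 to -5.66 at ZT4, -5.23 to -4.70 at ZT8, -5.00 to -3.72 at ZT12, and -2.32 to -1.41 at ZT16. With 4 mice per group, the exact permutation test (smallest p 0.029) did not pass from ZT4 to ZT16 without replicates 1, 2, or 3 (adjusted p = 0.057 to 0.086).

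With batch means removed, the correlation of Dbp and Hlf in control mice became -0.063, that of Tef and Nfil3 in cKOt mice -0.22, and that of Hlf and Nfil3 in cKOt mice -0.22. On corrected values, the last 2 were -0.21 and -0.11. None of these passed the permutation test. With the longest transcript as length, shares moved to 67.3% for Tef in control mice and 64.6% for Tef and 31.1% for Hlf in cKOt mice. Troughs of Dbp and Nfil3 rest on as few as 24 reads, which limits ratios at those hours.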
